A study of Mus musculus with 33 samples.

Results

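Apoe and 8 other genes of lipoprotein and cholesterol handling were followed across 33 RNA-seq libraries of microglia, brain-resident macrophages, from mice. The 9 genes, taken from a list by name, were Apoe, Apoc1, Lpl, Abca1, Abcg1, Soat1, Plin2, Ch25h and Nr1h3, and all 9 were found among the 54146 gene identifiers of the files. All mice were C57BL/6 and labelled female, and microglia were sorted by flow cytometry from brains dissociated without enzymes. The settings compared were an amyloid model, germline loss of Irf8, postnatal loss of Irf8 in cells with an active Cx3cr1 locus, and loss of Batf3. Irf8 encodes a transcription factor of the interferon regulatory family that macrophages and microglia need, and Batf3 encodes a partner factor of the same regulatory network.

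The 10 groups were as follows. At 3 months there were 4 WT libraries and 4 IRF8KO libraries (germline loss of Irf8). At 9 months there were 3 libraries each of WT, IRF8KO, 5xFAD (genotype label 5xFAD/WT) and 5xFAD/IRF8KO. The Batf3 experiment had 3 WT and 3 Batf3-/- libraries at 3 months, the latter called Batf3KO. The conditional experiment had 3 libraries of IRF8flox mice, called flox, and 4 of IRF8floxCx3cr1CreERT2 mice, called Cre. Both conditional groups were labelled as given tamoxifen on 5 days in a row from postnatal day 12 and were taken at 3 months. 5xFAD mice carry mutant human amyloid precursor protein and presenilin transgenes that are driven by a neuronal promoter, so the transgenes act on microglia from outside. CreERT2 is driven by the Cx3cr1 locus, which is active in microglia and also in other macrophages. The design text describes a Rosa26LSL-EYFP reporter and sorting of YFP-positive cells in the conditional experiment, while the flox label names neither Cre nor reporter, so whether the flox cells were sorted in the same way was not given. The labels do not say whether libraries of a group came from separate animals, so the p-values below measure the spread between libraries.

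Apolipoprotein E is the main lipid carrier of the brain, made mostly by astrocytes and, in disease, by microglia. Cells load cholesterol and phospholipid onto it through the transporters ABCA1 and ABCG1, whose genes are switched on by the liver X receptors (LXR) when oxysterols accumulate, and cholesterol that is not exported is esterified by SOAT1 and stored in lipid droplets coated by PLIN2. Microglia that meet amyloid plaques enter a disease-associated state, known for a rise of Apoe and Lpl.

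The promoters of Abca1 and Apoe are shown because these genes are both textbook LXR targets and moved apart in the data. The sequences are the 250 bases upstream of the RefSeq start site (GRCm38.p6), read 5′ to 3′ on the strand of the gene, which is the minus strand for both. The Abca1 window lies at chr4:53159896-53160145, and its capitals mark an E-box from 147 to 142 bases upstream of the start, a direct repeat with 4 spacer bases (DR4, the form of LXR response elements) from 67 to 52 bases upstream that matches on the opposite strand, and a TATA box from 29 to 24 bases upstream. The Apoe window, that of the first of 3 start sites, lies at chr7:19699189-19699438 and held none of the motifs searched.
Abca1: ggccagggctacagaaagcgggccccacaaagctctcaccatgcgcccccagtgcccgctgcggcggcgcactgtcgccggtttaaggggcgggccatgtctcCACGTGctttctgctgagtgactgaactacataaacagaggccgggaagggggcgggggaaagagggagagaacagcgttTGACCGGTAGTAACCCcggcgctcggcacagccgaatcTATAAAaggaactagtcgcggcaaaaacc
Apoe: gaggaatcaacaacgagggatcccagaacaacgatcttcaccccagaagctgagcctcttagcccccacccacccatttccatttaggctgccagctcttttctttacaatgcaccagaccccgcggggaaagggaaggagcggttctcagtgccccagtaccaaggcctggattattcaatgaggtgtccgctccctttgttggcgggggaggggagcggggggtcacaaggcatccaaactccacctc
The motifs were searched on both strands. They were GGAANNGAAA (the composite element of ETS and IRF factors), GAAANNGAAA (the core of the interferon-stimulated response element), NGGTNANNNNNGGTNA (DR4), CACGTG (E-box) and TATAAA. Among 32851 promoter windows of the same length they occurred in 2.3%, 2.98%, 0.621%, 6.02% and 12.4%. Of the 9 genes, 6 matched the promoter table with 9 windows in all. Neither IRF motif occurred in any of the 9 windows, and the DR4 occurred in the Abca1 window alone. A TATA box also lay in the windows of Ch25h and of the second start site of Apoe.

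On GRCm38 the gene bodies were annotated as protein-coding. Apoe (chr7:19696109-19699188) and Apoc1 (chr7:19689481-19692660) are neighbours on the minus strand. Abca1 (chr4:53030787-53159895) and Plin2 (chr4:86648386-86670060) share a chromosome and the minus strand. Soat1 (chr1:156424525-156474331), Ch25h (chr19:34473778-34475164) and Nr1h3 (chr2:91184061-91202834) also lie on the minus strand, and Lpl (chr8:68880491-68907448) and Abcg1 (chr17:31057675-31117988) on the plus strand. The counts ignored strand. The gene bodies of Soat1, Ch25h and Nr1h3 each overlap an annotated gene on the other strand (Gm37648, Gm26902 and Gm23390). Those of Abcg1 and Nr1h3 each overlap a gene of their own strand. Whether exons overlap, and whether reads were lost or shared there, was not tested.

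Several facts of the libraries touch the results. Depth ran from 605376 to 18357762 counts in genes, and WT at 9 months held the shallowest library. Levels are in CPM, the counts of a gene as a share of its library put on a common scale, adjusted with TMM factors over all 33 libraries. Irf8 itself ran from 253 to 333 CPM across WT and from 104 to 185 CPM across IRF8KO at 3 months, and at 9 months from 500 to 662 CPM across WT and 5xFAD and from 15.9 to 138 CPM in the groups with germline loss. In the conditional experiment Irf8 was 1050, 1190 and 953 CPM across flox and 1130, 412, 346 and 481 CPM across Cre. The library labelled Cre replicate 1 thus goes against its label, and the conditional results are given with and without it. Although every label reads female, 16 of 33 libraries held more Y-linked than Xist counts. They were all libraries of WT and IRF8KO at 3 months, of WT at 9 months and of 5xFAD/IRF8KO, and 1 of 3 in IRF8KO and in 5xFAD at 9 months. In 10 of 33 libraries both Y-linked and Xist counts were over 10. These were 3 of 4 in WT at 3 months and 1 of 3 in 5xFAD. All libraries of IRF8KO at 9 months and of 5xFAD/IRF8KO were also among them.

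Markers of other cells moved with germline loss of Irf8. At 9 months the 13 neutrophil markers summed to 6.51% to 9.1% of gene counts in IRF8KO and 8.25% to 14.9% in 5xFAD/IRF8KO, against at most 0.000496% in WT and 5xFAD. The 12 astrocyte markers, of interest because astrocytes make much Apoe, summed to 0.313% to 0.396% in IRF8KO and 0.163% to 0.244% in 5xFAD/IRF8KO, against 0.0244% to 0.0312% in WT and 5xFAD. The 11 markers of border macrophages, which line the vessels and meninges, summed to 0.112% to 0.196% in both groups with loss and 0.0109% to 0.0311% in both without. Of 10 tested, 7 were called higher and 1 lower in IRF8KO against WT. In 5xFAD/IRF8KO against 5xFAD 7 were called higher and none lower. Folr2 had no count in either group with loss, and Cbr2 had none in IRF8KO. Monocyte markers summed to 0.626% to 1.66% with loss and at most 0.00164% without, red blood cell markers to 1.41% to 16% and at most 0.00529%, oligodendrocyte markers to 0.487% to 1.12% and at most 0.0273%, and neuron markers to 0.047% to 0.343% and at most 0.000991%. The 15 homeostatic microglia genes summed to 0.489% to 1.11% with loss and 7.05% to 8.79% without. The 15 genes of disease-associated microglia summed to 1.43% to 1.66% in WT and 2.8% to 3.46% in 5xFAD. They summed to 0.482% to 1.05% in IRF8KO and 0.891% to 0.973% in 5xFAD/IRF8KO. In IRF8KO against WT, 8 of these 15 were called higher and 2 lower. In 5xFAD/IRF8KO against 5xFAD, 2 were called higher and 5 lower. Endothelial markers summed to 0.00295% to 0.00945% in IRF8KO and 0.0137% to 0.0246% in WT, though 3 of 6 tested were called higher. At 3 months the WT libraries were themselves mixed: neutrophil markers took 0.866% to 5.4% and homeostatic genes 1.66% to 3.2%, against 7.72% to 16.6% and 0.748% to 1.44% in IRF8KO. Red blood cell markers took 3.1% to 10.4% in WT and 0.919% to 9.12% in IRF8KO, oligodendrocyte markers 0.554% to 6.33% and 0.323% to 3.71%, and monocyte markers 0.0493% to 0.259% and 0.593% to 1.41%. The astrocyte list overlapped there (0.178% to 1.27% in WT, 0.104% to 0.663% in IRF8KO), while the border macrophage list did not (0.0158% to 0.036% and 0.157% to 0.213%). The part of these other cells in the members' differences was not tested. In bulk libraries, fewer cells of a type and less RNA per cell cannot be told apart.

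In short, Apoe was higher in 5xFAD than in WT microglia and higher again with germline loss of Irf8, where Apoc1, Soat1 and, at 9 months, Plin2 were higher as well. With conditional loss of Irf8 edgeR called none of the 9 over all Cre libraries. Only without the library labelled Cre replicate 1, whose Irf8 was not reduced, were genes called. Apoe, Apoc1, Lpl, Ch25h and Plin2 were then lower than in flox, and none was higher. The genes did not move as a block, and Abca1, Abcg1 and Nr1h3 followed other orders of the groups.

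**Figure D1:**
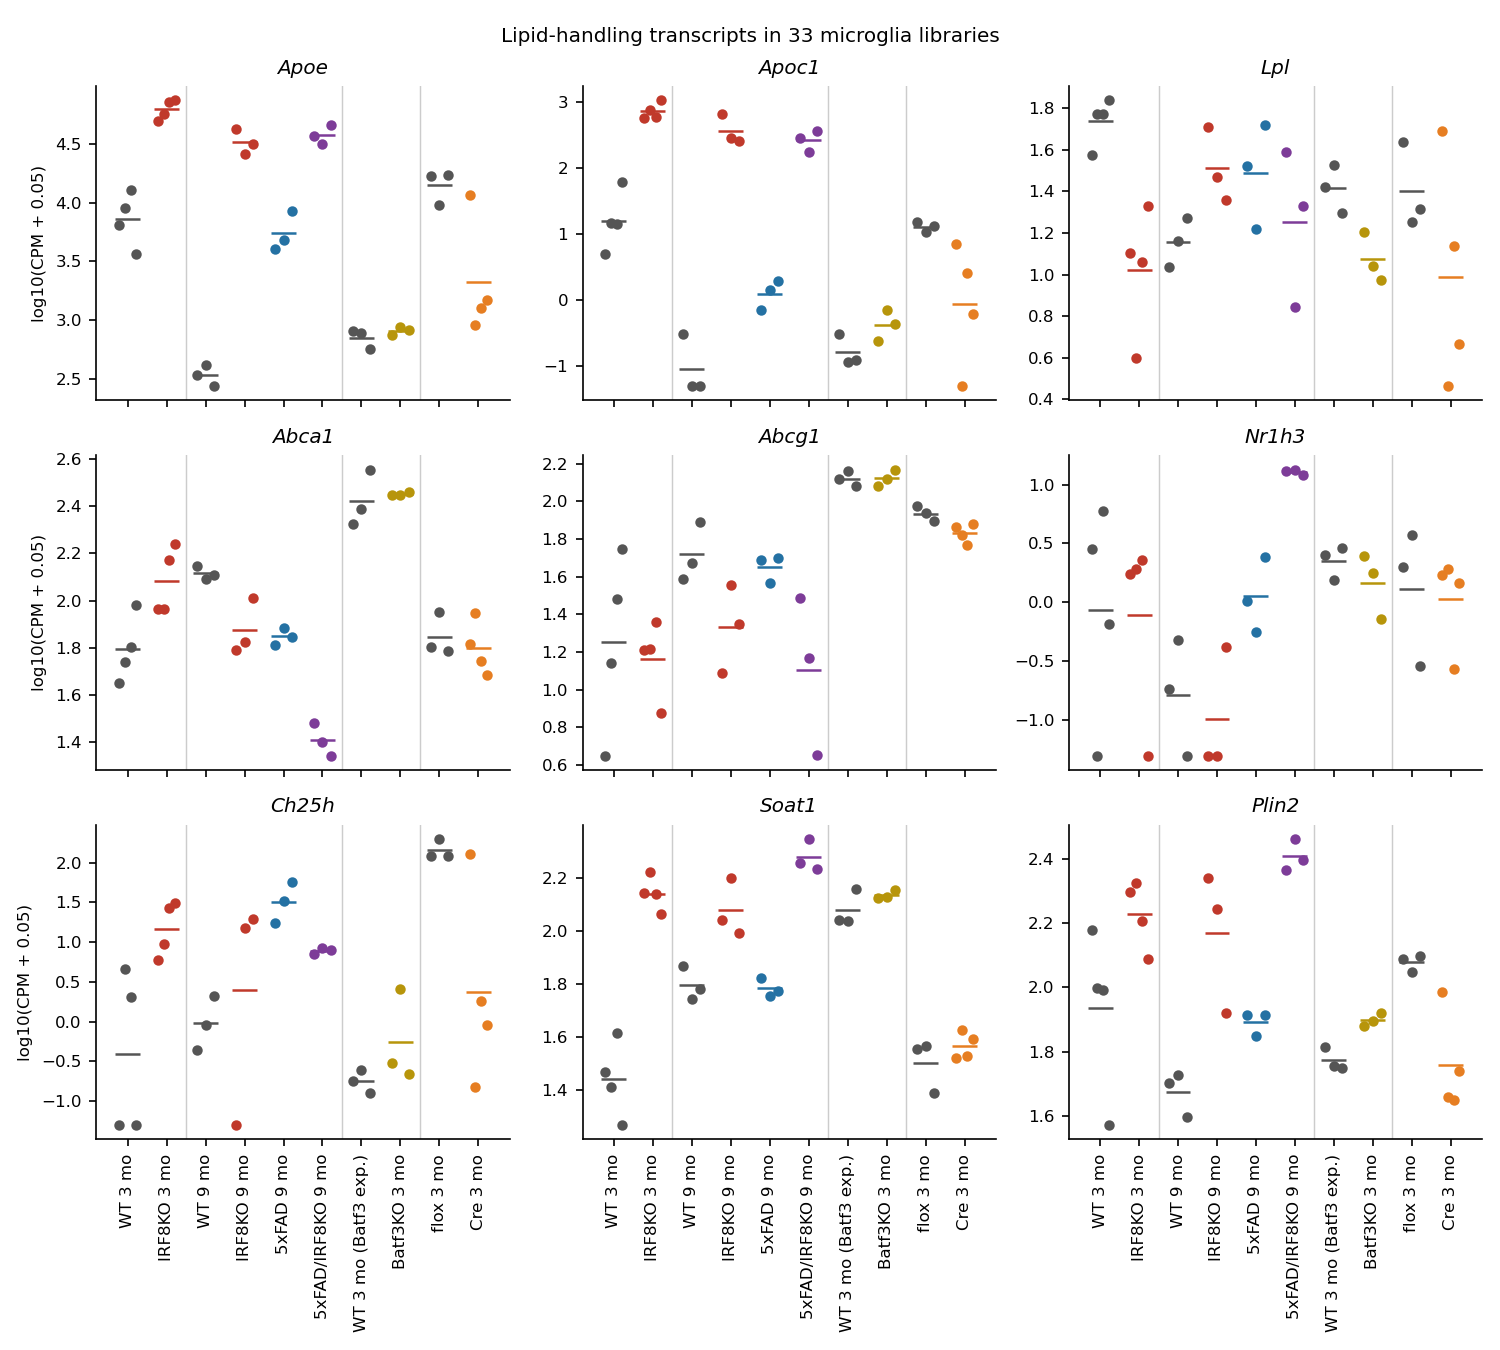
Level of each of the 9 genes in each of the 33 libraries, by group. The vertical axis is log10 of CPM plus 0.05, each point is a library and each bar the mean of the log values of a group; Apoe and Apoc1 sit highest in the 3 groups with germline loss of Irf8, and Ch25h sits highest in flox.

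Per kilobase of exon, Apoe was by far the most abundant of the 9 genes. Its level per kilobase ran from 129 to 34800 CPM over the 33 libraries, with a median of 3970. The medians of the others per kilobase were 23.7 for Plin2, 9.45 for Apoc1, 8.55 for Abca1, 7.49 for Soat1, 6.65 for Abcg1, 3.33 for Ch25h, 1.96 for Lpl and 0.664 for Nr1h3. Apoc1 and Ch25h were at 0 in 3 libraries each and Nr1h3 in 5. A count of 0 does not show absence at these depths. Changes below are log2 differences ± standard error (SE) from the quasi-likelihood test of edgeR, with p-values adjusted over all genes tested, and a gene was called changed at an adjusted p under 0.05.

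Apoe was 342, 418 and 275 CPM across WT at 9 months and 4050, 4780 and 8480 CPM across 5xFAD. Every 5xFAD library lay above every WT library, and the rise was 15.8-fold (log2 3.98 ± 0.365, adjusted p = 0.000816). With loss of Irf8 alone the 3 libraries reached 42100, 25900 and 31800 CPM, 86.1-fold above WT (6.43 ± 0.409, adjusted p = 1.43e-06). With both, 5xFAD/IRF8KO stood at 36700, 31600 and 46000 CPM, 6.18-fold above 5xFAD (2.63 ± 0.343, adjusted p = 0.000162). The 2 groups with loss overlapped, and their difference of 0.18 ± 0.323 was not called (adjusted p = 0.894, 95% interval -0.52 to 0.88). In the direct test between the 2 conditions, Apoe was 5.44-fold higher in IRF8KO than in 5xFAD (2.44 ± 0.34, adjusted p = 0.000249).

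On the log2 scale the 5xFAD effect on Apoe thus differed with and without Irf8: the interaction was -3.80 ± 0.472 (adjusted p = 0.0113, 95% interval -4.83 to -2.77). The Apoe call was lost with a sex score (log2 CPM of Xist minus that of Y-linked genes) as covariate (-4.34, adjusted p = 0.172). Mean CPM went from 345 in WT to 5770 in 5xFAD, and from 33300 in IRF8KO to 38100 in 5xFAD/IRF8KO. Whether these steps in CPM differed was not tested. The astrocyte markers were 0.0244% to 0.0312% in 5xFAD and 0.0245% to 0.0276% in WT, and neutrophil markers in 5xFAD were at or below 0.000207%. Of the 12 astrocyte markers, none was called between 5xFAD and WT; 6 to 10 were detected in a WT library and 7 to 10 in a 5xFAD library, with 1 and 2 at 0 throughout the group. Between IRF8KO and WT at 9 months, 12 of 12 astrocyte and 13 of 13 neutrophil markers were called higher. The part of these cells in the Apoe differences was not tested.

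At 3 months Apoe stood at 6520, 8970, 12800 and 3690 CPM across WT and at 49300, 56400, 72400 and 74300 CPM across IRF8KO. The groups did not overlap, and Apoe rose 7.58-fold (2.92 ± 0.598, adjusted p = 0.0132), from 0.301% to 1.16% of all gene counts in WT to 4.26% to 6.85% in IRF8KO. No astrocyte marker of 12 was called in that comparison, but 4 of 10 tested border macrophage markers and 6 of 13 neutrophil markers were called higher. With the sex score as covariate the Apoe call was lost (2.55, adjusted p = 0.303). At 3 months Xist took 0% of gene counts in IRF8KO and 7.79e-05% to 0.000607% in WT. Y-linked genes took 0.0118% to 0.0161% in IRF8KO and 0.000781% to 0.0107% in WT. Neither overlapped between the genotypes, so that fit can hardly tell the score from genotype. On the log2 scale the germline effect on Apoe was larger at 9 than at 3 months by 3.56 ± 0.64 (adjusted p = 0.000699). Mean Apoe was lower at 9 than at 3 months in IRF8KO (33300 and 63100 CPM) and far lower in WT (345 and 7990 CPM). WT levels at the 2 ages did not overlap, but age and experiment cannot be told apart.

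The order of the groups was wide for Apoe. IRF8KO at 3 months (mean 63100 CPM) stood above 5xFAD/IRF8KO and IRF8KO at 9 months (38100 and 33300), which overlapped each other. Then came flox (14600), WT at 3 months (7990), 5xFAD (5770) and Cre (3840), each overlapping the next in order. Batf3KO and its WT (819 and 714) overlapped and lay below all of these, and WT at 9 months (345) lay lowest. The control groups of the 4 experiments did not share a level of Apoe: they ran from 275 to 418 CPM across WT at 9 months to 9630 to 17200 CPM across flox, whose mean was 42.3-fold higher. In flox, astrocyte markers were at 0.0231% to 0.0297% and neutrophil markers at most at 0.0111%. Border macrophage markers were 0.0537% to 0.0651% in flox against 0.026% to 0.0311% in WT at 9 months. Neuron markers were at 0.0332% to 0.0442% against at most 0.000991%, and red blood cell markers at 0.0626% to 0.0739% against at most 0.00529%. Endothelial markers went the other way, at 0.000959% to 0.00165% in flox and 0.0137% to 0.0246% in WT at 9 months. The part of these cells in the level of Apoe was not tested.

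**Figure D2:**
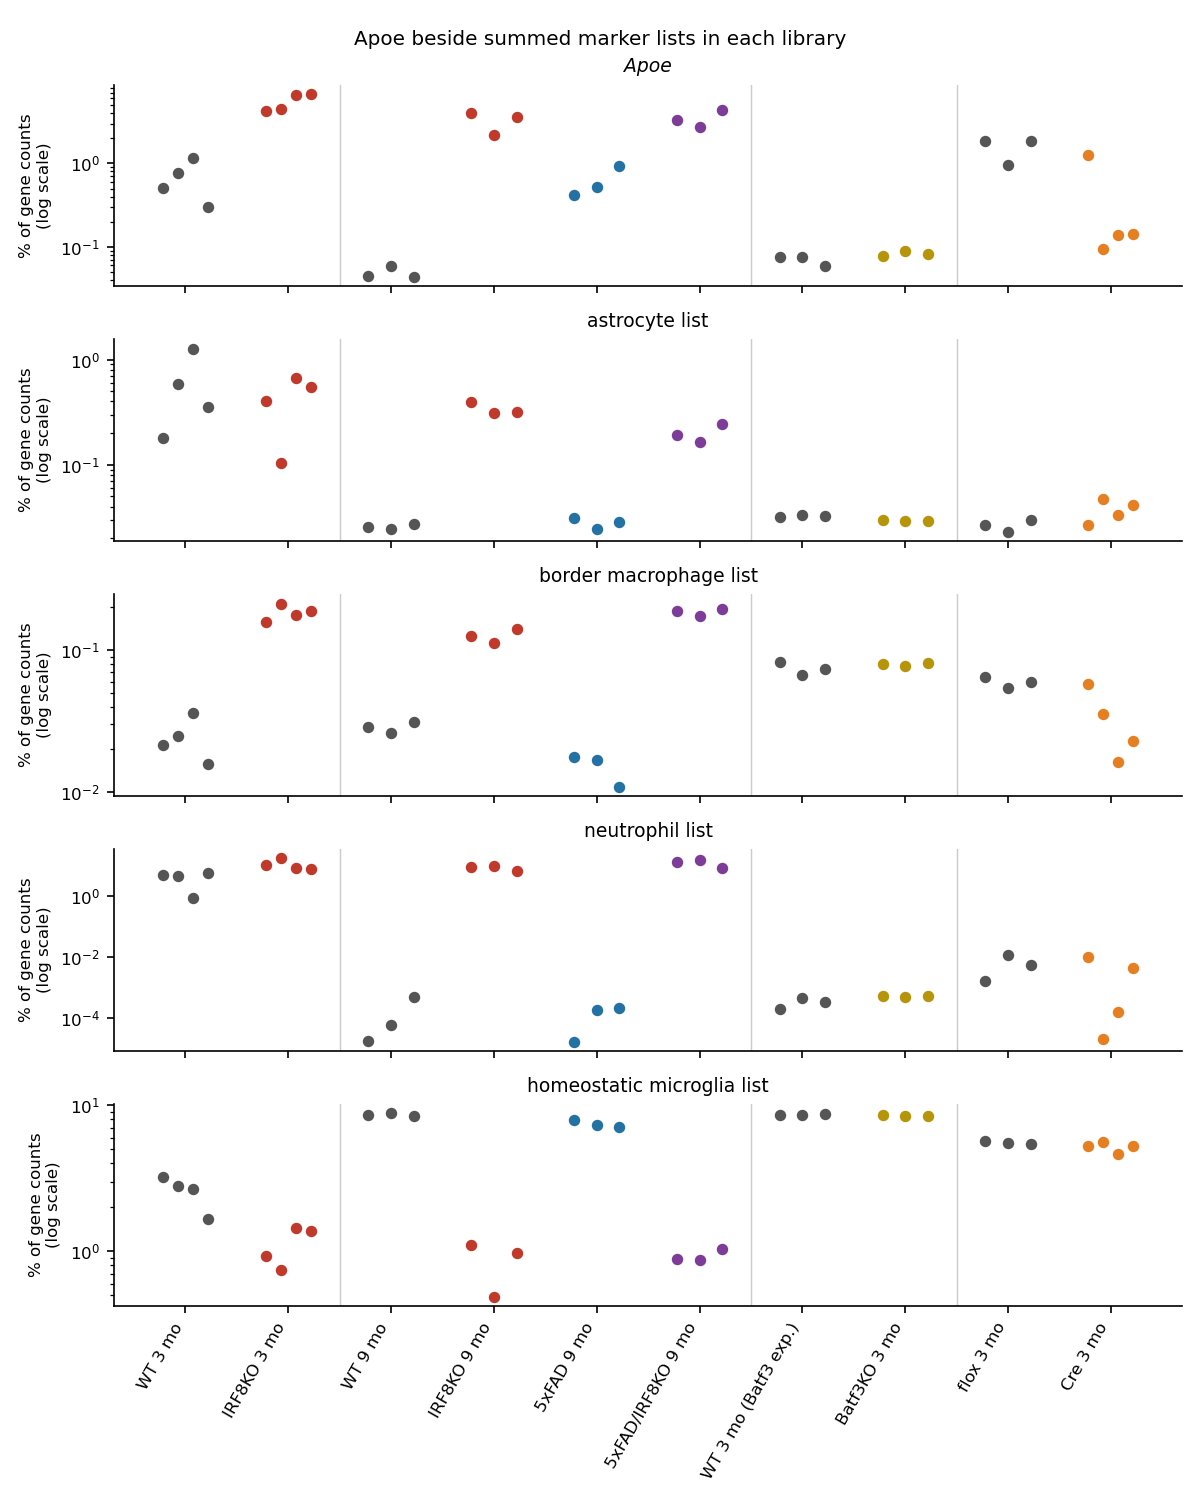
Share of all gene counts taken by Apoe and by 4 summed marker lists in each library, on a log axis, by group; points are libraries. The neutrophil list is high in WT at 3 months and in all 3 groups with germline loss of Irf8. The astrocyte list is at most 0.0312% in flox and 5xFAD, and the border macrophage list is 0.0537% to 0.0651% in flox.

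Apoc1, the gene next to Apoe, encodes a small apolipoprotein that slows lipoprotein uptake. At 9 months it was nearly undetected in WT (0.263, 0 and 0 CPM, from 2 counts in all) and 0.651, 1.36 and 1.91 CPM across 5xFAD, from 20 counts. It stood at 660, 288 and 257 CPM across IRF8KO and at 285, 178 and 365 CPM across 5xFAD/IRF8KO. Every library with loss lay far above every library without. Pooled counts put IRF8KO 2210-fold above WT, with a counting interval of 610 to 18200 (edgeR adjusted p = 2.67e-06). Against 5xFAD the levels were 224-fold higher in 5xFAD/IRF8KO (7.8 ± 0.605, adjusted p = 4.6e-06) and 328-fold higher in IRF8KO (8.36 ± 0.616, adjusted p = 3.4e-06). Between 5xFAD and WT the pooled ratio was 5.39 (counting interval 1.31 to 47.6), and the difference was not called (adjusted p = 0.268). Without WT replicate 1 the fitted Apoc1 change in IRF8KO was 14.47, and without IRF8KO replicate 1 it was 10.23, in place of 10.87; against 5xFAD the latter removal gave 7.75.

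At 3 months Apoc1 was 4.97, 14.7, 14 and 61.1 CPM across WT and 572, 772, 601 and 1070 CPM across IRF8KO. It rose 30.1-fold (4.91 ± 0.679, adjusted p = 0.00231) with no overlap, and by 5.95 on the log2 scale without WT replicate 4, the highest WT library. With the sex score the Apoc1 call was lost (2.76, adjusted p = 0.316), a fit with the limit given above for Apoe. On the log2 scale the germline effect on Apoc1 was larger at 9 months by 6.06 ± 1.26 (adjusted p = 0.00226), by 5.01 without WT replicate 4 at 3 months and by 9.44 without WT replicate 1 at 9 months. Mean Apoc1 was lower at 9 than at 3 months in IRF8KO (402 and 754 CPM) and far lower in WT (0.0877 and 23.7 CPM). Across all 33 libraries, log2 CPM of Apoc1 and Apoe had a Pearson r of 0.937, and Plin2 and Apoe one of 0.838. These points share libraries and depth, so the values are descriptions.

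Lpl encodes lipoprotein lipase, which releases fatty acids from lipoproteins and is a marker of disease-associated microglia. At 3 months it was 37.5, 59.1, 59.1 and 68.8 CPM across WT and 12.7, 3.94, 11.4 and 21.3 CPM across IRF8KO. It fell 4.77-fold without overlap (log2 -2.25 ± 0.49, adjusted p = 0.018), the opposite direction to Apoe. The Lpl call was lost without IRF8KO replicate 1 (-2.26, adjusted p = 0.0704) or replicate 3 (-2.2, adjusted p = 0.0576) and with the sex score (-2.65, adjusted p = 0.221). The limit given above for the sex score at 3 months holds for Lpl too.

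At 9 months Lpl was 10.8, 14.4 and 18.7 CPM across WT, 33.2, 16.5 and 52.6 CPM across 5xFAD, 51, 29.4 and 22.9 CPM across IRF8KO, and 39, 6.94 and 21.3 CPM across 5xFAD/IRF8KO. 5xFAD overlapped WT and IRF8KO did not. The changes were 1.15 ± 0.665 in 5xFAD (adjusted p = 0.649, 95% interval -0.29 to 2.6) and 1.08 ± 0.663 in IRF8KO (adjusted p = 0.247), neither called. The intervals are wide, and IRF8KO and 5xFAD differed by -0.07, with an interval from -1.47 to 1.34. The germline effect on Lpl differed between ages by 3.41 ± 0.753 (adjusted p = 0.00358), with age and experiment not separable.

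Abca1 and Abcg1 encode the transporters that move cholesterol out of the cell. Abca1 was 140, 123 and 128 CPM across WT at 9 months, 64.8, 76.7 and 70.3 CPM across 5xFAD, 61.5, 66.7 and 102 CPM across IRF8KO and 30.2, 25 and 22 CPM across 5xFAD/IRF8KO. The last group lay below all the others without overlap, and both single genotypes lay below WT. Abca1 fell in IRF8KO by 0.92 ± 0.278 on the log2 scale (adjusted p = 0.0264). Its difference in 5xFAD was of like size, -0.96 ± 0.278, but was not called (adjusted p = 0.119), while DESeq2 called it (adjusted p = 0.00723). The direct difference between IRF8KO and 5xFAD was 0.04 ± 0.275 (95% interval -0.56 to 0.63). Within 5xFAD, loss of Irf8 went with a 2.95-fold fall (-1.56 ± 0.282, adjusted p = 0.00166).

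The 5xFAD/IRF8KO libraries were also below IRF8KO in Abca1, by 1.6 on the log2 scale; this difference of -1.6 ± 0.282 narrowly missed the threshold (adjusted p = 0.0549). DESeq2 called it (adjusted p = 1.3e-06), and so did edgeR without any 1 of the 3 IRF8KO libraries. The Abca1 call in IRF8KO at 9 months was lost without each of the WT replicates in turn (adjusted p = 0.0827, 0.0717 and 0.0552) and with the sex score (-1.02, adjusted p = 0.112). At 3 months IRF8KO was the higher group: Abca1 was 44.7, 55, 63.8 and 96.1 CPM across WT and 91.9, 91.8, 148 and 173 CPM across IRF8KO. The groups overlapped, and the difference of 0.89 ± 0.346 was not called (adjusted p = 0.138). The germline effects at the 2 ages differed by -1.73 ± 0.493 (adjusted p = 0.0172), a call lost for Abca1 without WT replicate 1 at 9 months (-1.66, adjusted p = 0.0602).

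Abcg1 was 38.8, 47.2 and 77.8 CPM across WT at 9 months, 48.5, 36.8 and 49.8 CPM across 5xFAD, 12.2, 35.7 and 22.3 CPM across IRF8KO and 30.7, 14.7 and 4.46 CPM across 5xFAD/IRF8KO. Both groups with loss lay below both without, and no Abcg1 difference was called. Values were -1.37 ± 0.635 for IRF8KO against WT (adjusted p = 0.127) and -1.55 ± 0.636 for 5xFAD/IRF8KO against 5xFAD (adjusted p = 0.089). The latter was called for Abcg1 without 5xFAD/IRF8KO replicate 1 (-2.33, adjusted p = 0.0266). At 3 months the WT libraries alone spread from 4.42 to 55.7 CPM, and IRF8KO ran from 7.47 to 22.9 CPM. Across the 33 libraries Abca1 and Abcg1 had an r of 0.573 with each other and of -0.541 and -0.673 with Apoe, as descriptions.

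Soat1 encodes the enzyme that esterifies cholesterol for storage, and Plin2 a protein that coats lipid droplets. Soat1 was 29.3, 25.7, 41.2 and 18.5 CPM across WT at 3 months and 138, 166, 137 and 115 CPM across IRF8KO. It rose 4.65-fold (2.22 ± 0.333, adjusted p = 0.00304) with no overlap, and the call was lost for Soat1 with the sex score (2.07, adjusted p = 0.181). That fit has the limit given above for the sex score at 3 months. At 9 months it was 73.3, 55.2 and 60.2 CPM across WT, 66.3, 56.6 and 59.3 CPM across 5xFAD, 110, 158 and 97.9 CPM across IRF8KO and 180, 221 and 171 CPM across 5xFAD/IRF8KO. 5xFAD lay on WT (-0.13, 95% interval -0.7 to 0.44), and both groups with loss lay above. Within 5xFAD, loss of Irf8 went with a 2.92-fold rise (1.55 ± 0.266, adjusted p = 0.00122).

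The other Soat1 calls at 9 months were fragile. In IRF8KO against WT it rose by 0.79 ± 0.264 (adjusted p = 0.0406), and the call was lost without any 1 of 10 of the 12 libraries, with adjusted p from 0.0508 to 0.229; only leaving out 5xFAD/IRF8KO replicate 3 or IRF8KO replicate 3 kept it. Against 5xFAD, Soat1 was higher in IRF8KO by 0.92 ± 0.263 (adjusted p = 0.0204), and this call was lost without 5xFAD replicate 1, 2 or 3 (0.0572, 0.107 and 0.102) or IRF8KO replicate 2 (0.0993). Both were lost with the sex score (0.99, adjusted p = 0.0769, and 0.82, adjusted p = 0.0616). The germline effect on Soat1 was smaller at 9 than at 3 months by 1.37 (-1.37 ± 0.447, adjusted p = 0.0341), a call lost without 9 of 14 libraries in turn.

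Plin2 was 50.4, 53.1 and 39.4 CPM across WT at 9 months, 82, 70.4 and 81.8 CPM across 5xFAD, 219, 176 and 83.4 CPM across IRF8KO and 233, 290 and 249 CPM across 5xFAD/IRF8KO. Every group lay above WT without overlap. It rose 2.97-fold in IRF8KO (1.57 ± 0.322, adjusted p = 0.00354) and 3.07-fold in 5xFAD/IRF8KO over 5xFAD (1.62 ± 0.319, adjusted p = 0.00297), while the difference between 5xFAD and WT was 0.63 ± 0.318 (adjusted p = 0.526). IRF8KO stood above 5xFAD by 0.94 ± 0.315 (adjusted p = 0.0407). That Plin2 call was lost when 11 of the 12 libraries were left out in turn (adjusted p from 0.0506 to 0.169, IRF8KO replicate 3 being the exception) and with the sex score (0.9, adjusted p = 0.0799). At 3 months Plin2 ran from 37.2 to 151 CPM across WT and from 123 to 211 CPM across IRF8KO, and 0.78 ± 0.402 was not called (adjusted p = 0.271).

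Ch25h encodes an enzyme that hydroxylates cholesterol to an oxysterol, and Nr1h3 encodes LXR alpha, which senses oxysterols. Ch25h was 0.395, 0.85 and 2.08 CPM across WT at 9 months, 17.2, 32.9 and 56.5 CPM across 5xFAD, 0, 15.2 and 19.8 CPM across IRF8KO and 6.96, 8.47 and 7.86 CPM across 5xFAD/IRF8KO. All 5xFAD libraries lay above all WT libraries, and the 5xFAD libraries also lay above those of 5xFAD/IRF8KO. The differences of 5.17 ± 1.55 (5xFAD against WT, adjusted p = 0.136) and -2.28 ± 1.28 (5xFAD/IRF8KO against 5xFAD, adjusted p = 0.208) were not called. Neither were IRF8KO against WT (3.5 ± 1.48, adjusted p = 0.0964) and the interaction (-5.78 ± 1.95, adjusted p = 0.188). A single library weighed on these fits. Without IRF8KO replicate 1, which held no Ch25h count, the Ch25h differences were 5.17 (adjusted p = 0.0153) and -2.36 (adjusted p = 0.0219), the interaction was -6.38 (adjusted p = 0.035) and IRF8KO against WT was 4.01 (adjusted p = 0.00516). At 3 months Ch25h was 0, 4.61, 1.98 and 0 CPM across WT and 6, 9.33, 26.8 and 31.1 CPM across IRF8KO, which did not overlap and was not called (3.28 ± 1.17, adjusted p = 0.107). Without WT replicate 2, the highest WT library, the Ch25h difference was 4.43 (adjusted p = 0.0659).

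Nr1h3 was scarce everywhere. Its highest levels were 13.1, 13.3 and 12 CPM across 5xFAD/IRF8KO, where the libraries lay above every other library of the study. At 9 months WT had 0.132, 0.425 and 0 CPM, 5xFAD 0.977, 0.511 and 2.39 CPM and IRF8KO 0, 0 and 0.369 CPM. From 435 against 3 pooled counts, Nr1h3 was 96.9-fold higher in 5xFAD/IRF8KO than in IRF8KO (counting interval 32.9 to 472). edgeR did not call it (adjusted p = 0.122) and DESeq2 did (adjusted p = 5.91e-06). Without IRF8KO replicate 3, the only library of its group with a count, edgeR called Nr1h3 as well (adjusted p = 0.0448). Against 5xFAD the difference was 3.25 ± 1.28 (adjusted p = 0.0776), and without that library 3.17 (adjusted p = 0.0477). Without it Nr1h3 was also called lower in IRF8KO than in 5xFAD (-6.28, adjusted p = 0.0199). The 3-month groups overlapped between 0 and 5.86 CPM.

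**Figure D3:**
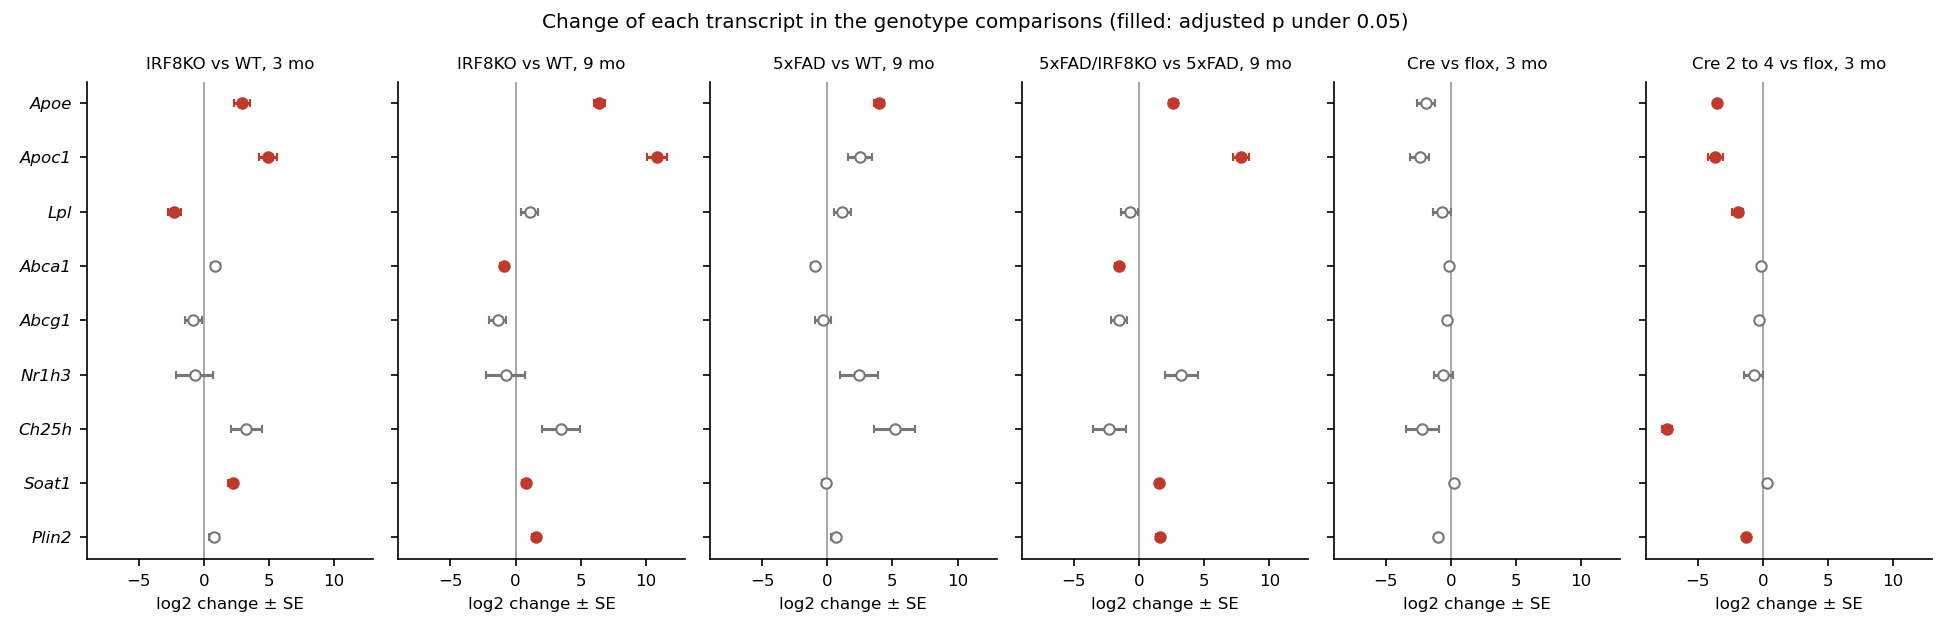
Log2 change of each of the 9 genes in 6 comparisons, with bars of ± SE and filled points for an adjusted p under 0.05; the last panel compares the 3 Cre libraries with reduced Irf8 with flox. Apoe and Apoc1 lie to the right in the panels of germline loss and to the left in the conditional panel.

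Read as a group, the 9 genes had 1 called of 9 in 5xFAD against WT, namely Apoe, where 1.99% of all tested genes were called. Their median change was 1.15, against 0 over all genes. In IRF8KO against WT at 3 months 3 rose and 1 fell, where 7.39% of all genes were called, and the members' median was 0.89 against -0.02. At 9 months 4 rose and 1 fell, beside 28.3% of all genes, with medians of 1.08 and 0.25. In 5xFAD/IRF8KO against 5xFAD 4 rose and 1 fell, beside 27.8% of all genes, with medians of 1.55 and 0.24. The direct test of IRF8KO against 5xFAD called 4 higher and none lower, beside 29.5% of all genes. The 9-month comparisons share their control libraries, so that a high WT or 5xFAD library enters several of them.

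Called members were fewer in the remaining tests at 9 months. The interaction called Apoe alone, beside 0.438% of all genes. In 5xFAD/IRF8KO against IRF8KO edgeR called none of 9, beside 0.164% of all genes (24 of 14604); over all genes 1853 (12.7%) had an unadjusted p under 0.05, and DESeq2 called 2 members, Abca1 and Nr1h3. Between 9 and 3 months the germline effect differed for 5 members, higher at 9 months for 3 and lower for 2, beside 24% of all genes. Counting overlap in place of a test, 5 members lay above and 1 below WT in every 5xFAD library, where 39% of all genes did not overlap. The same count in IRF8KO at 3 months was 4 above and 1 below, where 19.6% of all genes did not overlap.

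Conditional loss of Irf8 gave another picture. Over all 4 Cre libraries no member was called by edgeR, and none of 15512 genes was (0%), though 1407 (9.07%) had an unadjusted p under 0.05 and DESeq2 called 161 genes, Plin2 among them (adjusted p = 0.0136). Apoe was 16900, 9630 and 17200 CPM across flox and 11700, 918, 1270 and 1500 CPM across Cre. The library labelled Cre replicate 1, with unreduced Irf8, lay within the flox range, and the other Cre libraries lay far below it. The difference over all libraries was -1.94 ± 0.694 (adjusted p = 0.385). Without that library Apoe was lower by 3.51 on the log2 scale (-3.51 ± 0.265, adjusted p = 1.52e-08), at 1230 ± 294 CPM (SD, n = 3).

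In 4 more genes, all called without Cre replicate 1, Cre replicates 2 to 4 lay below flox. The library labelled Cre replicate 1 lay within or above the flox range for Ch25h and Lpl and below it for Apoc1 and Plin2. Abcg1, which was not called, also lay below flox in every Cre library. The share of all genes without overlap is not given for this comparison. Ch25h was 121, 198 and 121 CPM across flox and 130, 0.0986, 1.76 and 0.847 CPM across Cre. Its difference was -2.2 ± 1.25 with all libraries (adjusted p = 0.683) and -7.32 ± 0.389 without Cre replicate 1 (adjusted p = 1.29e-10). Apoc1 was 15.4, 10.6 and 13.5 CPM across flox and 7.03, 0, 2.53 and 0.564 CPM across Cre, with -2.41 ± 0.755 (adjusted p = 0.306) and -3.66 ± 0.573 (adjusted p = 0.000195).

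Lpl was 43.4, 17.8 and 20.6 CPM across flox and 49.2, 2.86, 13.6 and 4.61 CPM across Cre, and was lower without Cre replicate 1 by 1.93 (-1.93 ± 0.412, adjusted p = 0.00475). Plin2 was 123, 112 and 125 CPM across flox and 97, 45.5, 44.4 and 54.8 CPM across Cre, and was lower by 1.27 (-1.27 ± 0.167, adjusted p = 2.73e-05). In all, 5 of 9 members were called lower and none higher without that library, beside 6.24% of all genes (952 of 15264). The choice of libraries rests on Irf8 alone, and the Cre group then has 3 libraries.

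The transporters, Soat1 and Nr1h3 were not called. Abca1 was 63.5, 89.3 and 60.8 CPM across flox and 65.1, 88.6, 55.5 and 48.1 CPM across Cre (-0.12, 95% interval -0.61 to 0.37). Abcg1 was 94.2, 86.2 and 78.3 CPM across flox and 73.3, 66.2, 58.5 and 75.4 CPM across Cre (-0.31, 95% interval -0.66 to 0.04), with every Cre library slightly below flox. Soat1 was 35.7, 36.9 and 24.4 CPM and 33, 42.4, 33.6 and 39.1 CPM (0.23, 95% interval -0.2 to 0.66), and Nr1h3 stayed at or below 3.71 CPM in all 7 libraries. None of these 4 was called without Cre replicate 1 either. In the same libraries astrocyte markers were 0.0231% to 0.0297% in flox and 0.0267% to 0.0471% in Cre, and homeostatic genes 5.43% to 5.67% and 4.63% to 5.58%. Border macrophage markers were 0.0537% to 0.0651% in flox. They were 0.0579% for the library labelled Cre replicate 1, and 0.0353%, 0.0163% and 0.0227% for Cre replicates 2 to 4. The 15 genes of disease-associated microglia were 1.67% to 1.81% in flox, 1.93% in that library and 1.24%, 1.15% and 1.25% in the others. Both lists thus split as Apoe did, and their part in the lower levels was not tested.

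**Figure D4:**
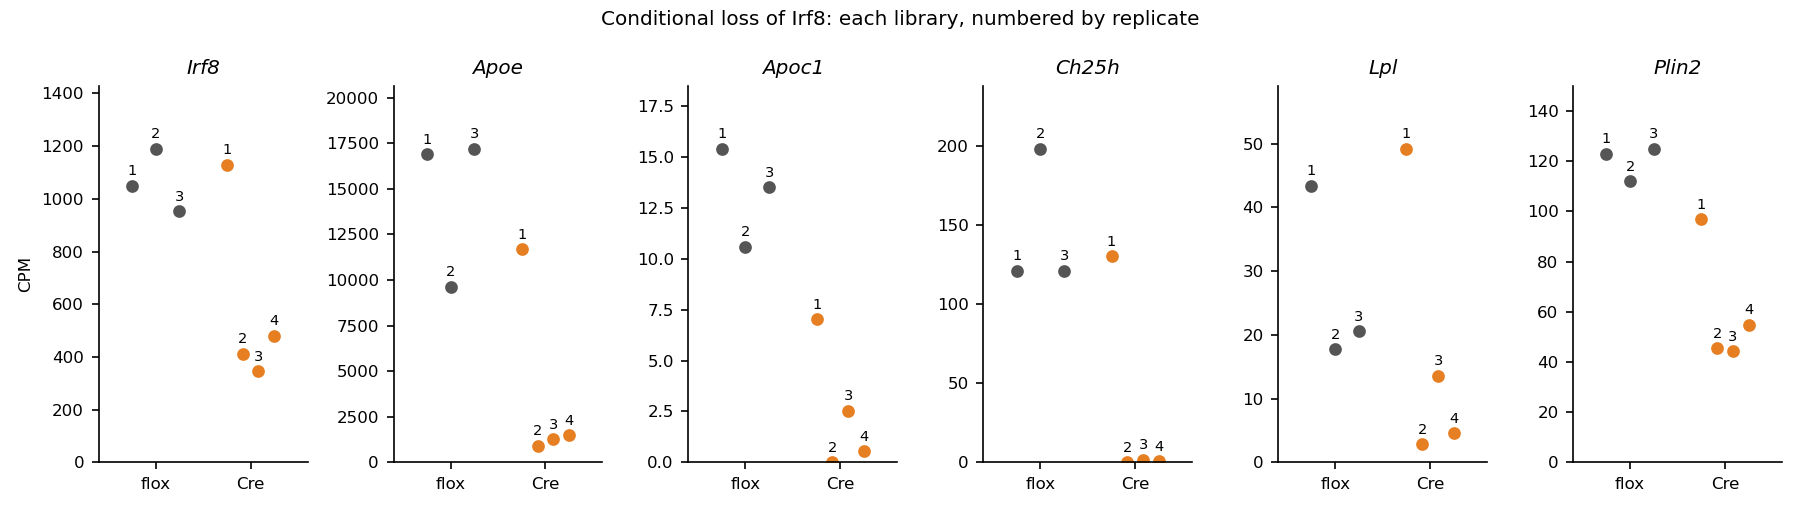
CPM of Irf8, Apoe, Apoc1, Ch25h, Lpl and Plin2 in the 3 flox and 4 Cre libraries, numbered by replicate. The library labelled Cre replicate 1 has 1130 CPM of Irf8 and lies within the flox range for Apoe and Ch25h, and Cre replicates 2 to 4 lie below flox in all 6 genes.

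The conditional and germline effects at 3 months were compared in one model of 15 libraries, in which the type of loss and the experiment cannot be told apart. Apoe differed by -4.76 ± 0.99 (adjusted p = 0.00854), Apoc1 by -7.25 ± 1.13 (adjusted p = 0.00147) and Soat1 by -1.89 ± 0.402 (adjusted p = 0.00961), each lower in the conditional contrast. These were 3 of 9, beside 7.04% of all genes. Without Cre replicate 1 the differences were -6.33 for Apoe, -8.49 for Apoc1, -10.35 for Ch25h, -1.82 for Soat1 and -1.96 for Plin2, 5 of 9 beside 6.63% of all genes. For Lpl, which fell with germline loss and in the conditional experiment only without Cre replicate 1 (-0.66, adjusted p = 0.897, over all libraries), the difference was 1.69 (adjusted p = 0.312) with and 0.43 (adjusted p = 0.826) without that library. For Apoc1 the difference was -8.22 without WT replicate 4. The call for Plin2 appeared in 4 leave-one-out fits, those without Cre replicate 1, IRF8KO replicate 4, and WT replicate 1 or 4.

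In the Batf3 experiment Lpl and Plin2 were called. Apoe was 803, 773 and 567 CPM across WT and 753, 877 and 827 CPM across Batf3KO, overlapping, with a difference of 0.26 ± 0.102 (adjusted p = 0.193, 95% interval 0.04 to 0.48). Lpl fell 2.11-fold, from 26.3, 33.7 and 19.8 CPM to 16, 11 and 9.34 CPM (-1.08 ± 0.225, adjusted p = 0.018). Plin2 rose 1.39-fold, from 65.2, 56.7 and 56.2 CPM to 75.9, 78.3 and 83.2 CPM (0.47 ± 0.0949, adjusted p = 0.0142). Of the 7 members tested 1 rose and 1 fell, beside 3.83% of all genes, and Apoc1 and Ch25h were too low to test. The Lpl call was lost without Batf3KO replicate 2 (0.0772) or WT replicate 2 (0.109), and the Plin2 call without Batf3KO replicate 1 (0.057) or 2 (0.0627) or WT replicate 2 (0.0991). Plin2 was also lost with the replicate number as a block (0.47, adjusted p = 0.0768). Abca1 and Abcg1 were at their highest in this experiment, at 211 to 358 and 120 to 147 CPM, with both genotypes overlapping.

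The wider lipid genes were described by 6 lists of 95 genes in all. In 5xFAD against WT, 1.81% of all genes were called higher and 0.178% lower. No gene of cholesterol synthesis was called among 24 tested, and none of 4 in oxysterol metabolism. Each of the other 4 lists had 1 gene higher. Tyrobp, the signalling partner of the lipid receptor TREM2, was 5740 ± 1440 CPM across 5xFAD against 1270 ± 238 in WT (2.09 ± 0.306, adjusted p = 0.0123, SD over n = 3). Npc2, which hands cholesterol out of the lysosome, was 872 ± 159 against 311 ± 61.4 CPM (1.41 ± 0.238, adjusted p = 0.0154), and G0s2, an inhibitor of the droplet lipase ATGL, 9.33 ± 1.37 against 1.39 ± 1.5 CPM (2.52 ± 0.524, adjusted p = 0.0342). Apoc4, in the same cluster as Apoe, had 48 counts in 5xFAD and none in WT, at least 8.63-fold higher against 3 counts over the group; it is named as the fourth gene although its level was below the 5 CPM set for naming.

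With germline loss of Irf8 at 9 months, 19.6% of all genes were called higher and 8.68% lower, so that a list with about 28.3% of its genes called stands at the level of all genes; the lists of cholesterol synthesis, lysosomal transport and oxysterol metabolism were near it. Of 14 tested genes of lipase cofactors and lipid droplets, 8 rose and none fell, with a median change of 1.55. Fabp5, a fatty acid carrier, was 55.1 ± 10.8 CPM across IRF8KO against 0.742 ± 0.87 in WT (5.91 ± 0.905, adjusted p = 0.000499). Of 24 genes of cholesterol synthesis 6 rose and 1 fell (median 0.68). Sqle, which oxidises squalene on the way to sterols, was 40.8 ± 28.9 against 3.04 ± 1.42 CPM (3.56 ± 0.786, adjusted p = 0.00549). Scap, which escorts the factors that switch on sterol synthesis, fell (-2.78, adjusted p = 0.0031). Of 14 LXR partners and targets 5 rose and 4 fell (median -0.36). Among them Scd1, a fatty acid desaturase, had no count in WT and stood at 127 ± 67 CPM across IRF8KO, at least 450-fold higher. Lpcat3, which remodels phospholipids, fell from 218 ± 31.7 to 39.4 ± 16.1 CPM (-2.63 ± 0.32, adjusted p = 9.27e-05).

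Receptors split in both directions at 9 months, with 5 of 13 higher and 4 lower. Trem2 fell from 1020 ± 239 to 292 ± 143 CPM (-1.98 ± 0.398, adjusted p = 0.00322) and Lrp1, a receptor for APOE-lipoproteins, from 286 ± 35.2 to 20.3 ± 10.7 CPM (-3.97 ± 0.597, adjusted p = 0.000443). Vldlr, with 713 pooled counts against 1, was 342-fold higher (counting interval 61.2 to 13500). Of 15 genes of lysosomal and intracellular transport 2 rose and 3 fell, and Gpr183, a receptor for oxysterols, was the 1 called of 4 oxysterol genes, at 101 ± 19.1 against 519 ± 74.7 CPM (-2.53 ± 0.39, adjusted p = 0.000536). These changes stood beside the markers of neutrophils, astrocytes, oligodendrocytes, neurons and other cells given above for the same libraries, whose part was not tested.

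At 3 months 4.15% of all genes were called higher in IRF8KO and 3.24% lower. Of 16 droplet genes 3 rose and none fell, among them Dgat2, which makes triglyceride, from 21.1 ± 5.59 to 188 ± 66.9 CPM (3.09 ± 0.384, adjusted p = 0.00156), and Acsl1, which activates fatty acids, from 22 ± 13.1 to 167 ± 51.3 CPM (2.85 ± 0.454, adjusted p = 0.00417). Of 13 receptors 4 rose and 1 fell. Sorl1, a sorting receptor for the amyloid precursor protein, went from 52.3 ± 29.8 to 279 ± 97.9 CPM (2.34 ± 0.447, adjusted p = 0.0103), and Trem2 was the one that fell, from 1580 ± 869 to 437 ± 123 CPM (-1.93 ± 0.439, adjusted p = 0.022). Apoc4 was the only called gene of 14 LXR partners and targets, at 82 ± 18 against 1.3 ± 2.56 CPM (5.69 ± 1.12, adjusted p = 0.0115). None of 23 genes of cholesterol synthesis was called. Of 3 tested oxysterol genes 2 fell, Gpr183 and Cyp27a1, the latter another sterol hydroxylase, from 40.1 ± 21.5 to 5.56 ± 1.66 CPM (-2.93 ± 0.544, adjusted p = 0.00898). Markers of other cells in these libraries are given above, and the part of those cells was not tested.

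Within 5xFAD, loss of Irf8 went with 6 of 14 droplet genes higher and 1 lower (median 2.06), where 18% of all genes were called higher and 9.72% lower. Dgat2 was 257 ± 136 CPM across 5xFAD/IRF8KO against 6.24 ± 1.7 in 5xFAD (5.22 ± 0.567, adjusted p = 4.12e-05), and G0s2 168 ± 9.32 against 9.33 ± 1.37 CPM (4.06 ± 0.479, adjusted p = 7.77e-05). Hmgcs1, at the entry of sterol synthesis, was 86.9 ± 36.8 against 12.6 ± 1.1 CPM (2.68 ± 0.4, adjusted p = 0.000452), 1 of 2 called among 24. Trem2 was lower, 429 ± 202 against 2480 ± 394 CPM (-2.63 ± 0.408, adjusted p = 0.000578), and the receptors split, with 4 of 13 higher and 3 lower. Of 14 LXR partners and targets 5 were higher and 2 lower. Of 15 genes of lysosomal transport 2 were higher, Osbpl8 (2.84, adjusted p = 0.0195) and Nceh1 (1.25, adjusted p = 0.0429), and 5 lower, among them Stard3 at 67.7 ± 14.8 against 340 ± 41.6 CPM (-2.43, adjusted p = 3.58e-05). Markers of other cells in 5xFAD/IRF8KO and 5xFAD are given above, and the part of those cells was not tested. In 5xFAD/IRF8KO against IRF8KO no gene of the 6 lists was called.

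In the conditional experiment no gene of the 6 lists was called over all libraries. Without Cre replicate 1, where 6.24% of all genes were called, 4 of 13 LXR partners and targets were lower and none higher. The genes named here were chosen after their values were seen. Pltp, a phospholipid transfer protein, was 2.53 ± 0.286 CPM across Cre replicates 2 to 4 against 49.2 ± 13.5 in flox (-4.22 ± 0.261, adjusted p = 7.02e-10). Scd2, Mylip and Apoc4 were the other 3. Among the receptors, Lrp1 and Stab1 were lower. Of 23 genes of cholesterol synthesis 1 was lower, Srebf2 (-0.74, adjusted p = 0.0341), and of 15 of lysosomal transport Npc1 was higher (0.81, adjusted p = 0.00382) and Osbpl2 lower (-0.63, adjusted p = 0.0449). Of 13 droplet genes 2 were higher (Plin3 and Pnpla2) and 1 lower, G0s2, at 4.13 ± 0.174 against 60.7 ± 9.46 CPM (-3.82 ± 0.218, adjusted p = 2.31e-10). Cyp27a1 was higher, 45.9 ± 2.29 against 7.57 ± 1.29 CPM (2.65 ± 0.21, adjusted p = 3.02e-08), whereas it fell with germline loss, and the difference between conditional and germline effects over all libraries was 5.32 ± 0.818 (adjusted p = 0.00135).

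**Figure D5:**
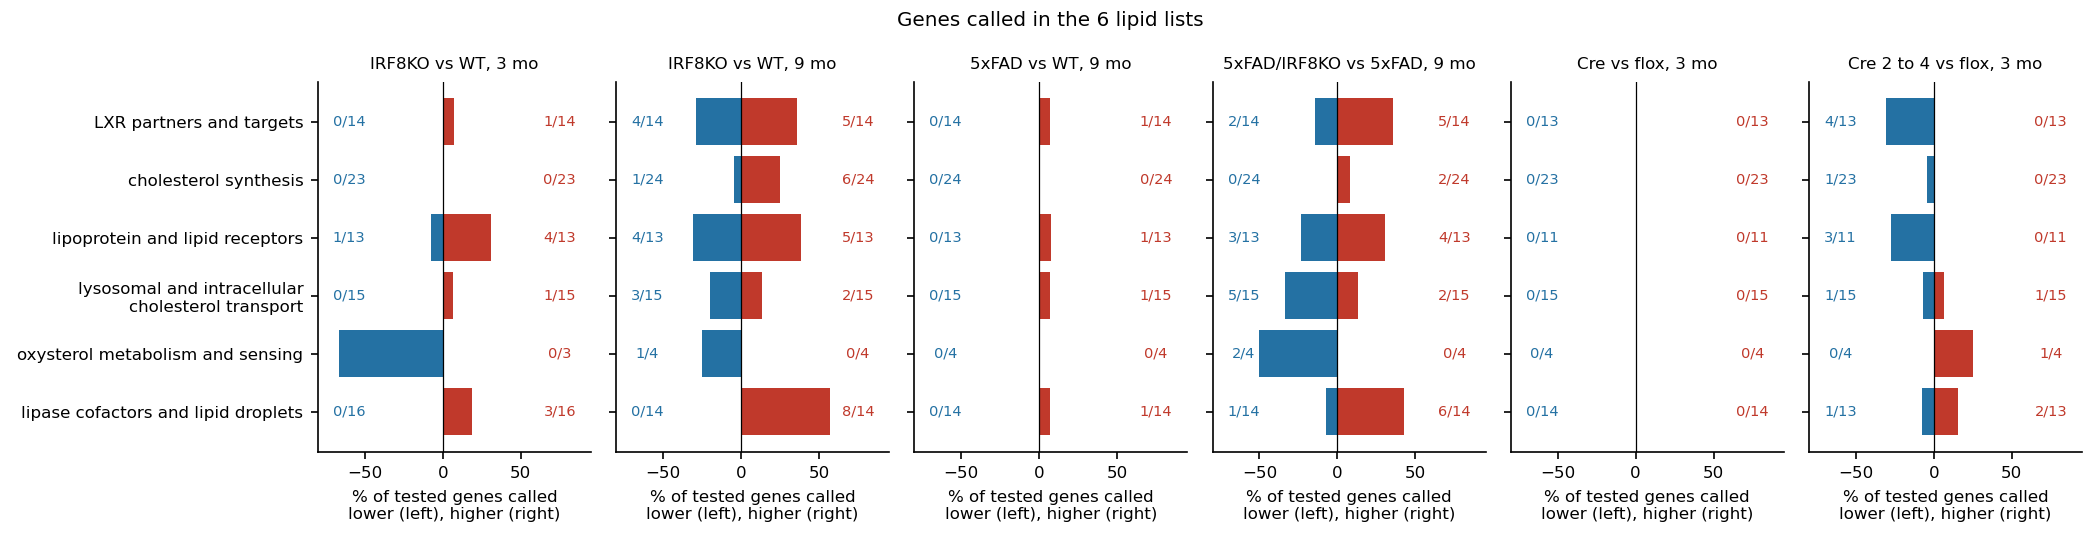
Percent of the tested genes of each of 6 lipid lists called higher or lower in 6 comparisons, with the counts on the bars. Droplet genes were called mostly higher with germline loss of Irf8 (8 of 14 at 9 months), and few genes were called in 5xFAD.

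With the members and genes without a symbol left out, the genes whose log2 CPM followed Apoe most closely over the 33 libraries, of 13983 compared, were Tmem51 (r = 0.963), Pf4 (0.944), Pilra (0.94), F630028O10Rik (0.926) and Pilrb2 (0.926). Pf4 is also one of the border macrophage markers. Those most like Lpl were Cadm1 (0.745), Khdrbs3 (0.616), Hddc3 (0.575), Pebp1 (0.549) and Dnlz (0.535), none as close. The correlation of Lpl with Apoe was 0.202, that of Soat1 0.198, of Nr1h3 0.17 and of Ch25h 0.579. All are descriptions over libraries that share depth and cell makeup.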

How the data were processed

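RNA was measured in 33 libraries of sorted mouse microglia. Per the labels' protocols, cDNA was amplified with a SMART-Seq kit and tagged with Nextera XT, which carry no molecular identifiers, so intervals from counts (95%) and floors of 3 counts cover counting error only. The authors deposited whole-number counts of reads per gene without normalization, in the layout of STAR gene counts with 4 summary lines and 3 count columns. The submitters' processing notes name the build mm10, STAR 2.5.2b, Picard 2.17.11, bcl2fastq, Subread and featureCounts. Counts regardless of strand were taken, as either strand held 49.5% to 50.1% of reads. The summary lines entered neither depth nor tests, and reads in genes made up 47.3% to 78.6%. Of 54146 identifiers, 54079 matched GENCODE M21 (GRCm38) and 67 did not.

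Samples were grouped by titles and genotype labels. Of 39 pairs of replicates none held identical values. Differences were assessed by the edgeR 4.0.16 quasi-likelihood test (filterByExpr, TMM, Benjamini-Hochberg adjustment over all genes tested, threshold 0.05) in R 4.3.3 with limma 3.58.1. SE is the log2 change divided by the root of the F statistic. Models held the 8, 12, 6 and 7 libraries of the experiments, and 15 or 14 for differences between experiments, and the 12 libraries aged 9 months shared one model. The code was tested on simulated data. Alternatives were size factors of the DESeq2 type, library totals, no filter, DESeq2 1.42.0, the replicate block, all 33 libraries in one model, a sex score, and each library left out in turn, 195 fits in all.

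The 9 genes and all lists were chosen with earlier results of these data known. From each lipid list, up to 2 called genes in each direction, by size of change, at 5 CPM or more in the higher group, could be named in a comparison. The 5 genes most like Apoe and Lpl were taken by Pearson r of log2 CPM with a prior count of 2, with members and genes without a symbol left out. Replicate numbers were not used to pair samples, since not every same-numbered pair correlated over 0.1 in any model. Of these pairs, 2 of 4 exceeded 0.1 in IRF8KO and WT at 3 months and 2 of 3 in the conditional experiment. Pairs with different numbers were not compared, so whether the numbers pair samples was not settled.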

Additional observations from a re-analysis of the deposited data

Results flagged for a closer look

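Apoe and Ch25h in the library labelled Cre replicate 1, at 11700 and 130 CPM, stood apart from the other 3 Cre libraries by more than Dixon's critical value for 4 values. That rule flags about 1 in 20 groups by chance. The effect of 5xFAD on Apoe differed between mice with and without Irf8, with an interaction of -3.80 on the log2 scale. The conditional effect differed from the germline effect at 3 months for Apoe (-4.76), Apoc1 (-7.25) and Soat1 (-1.89), and type of loss and experiment cannot be told apart. The germline effect differed between 9 and 3 months for Apoe (3.56), Lpl (3.41), Abca1 (-1.73), Apoc1 (6.06) and Soat1 (-1.37), and age and experiment cannot be told apart.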

How the results depend on the processing

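Over 1722 alternative values of the members, 1557 kept direction and side of the threshold, 67 lost a call, 53 gained one, 45 uncalled values moved and no called value changed sign. Of the members called, DESeq2 gave 3 in 5xFAD against WT, 2 in 5xFAD/IRF8KO against IRF8KO, 2 in the interaction and 1 in the conditional experiment, in place of 1, 0, 1 and 0. Without a filter on low counts the numbers were 2 in 5xFAD against WT, 4 in Batf3KO (main 2), 5 in the conditional minus germline effect (main 3), 4 in the conditional experiment (main 0; Apoe, Apoc1, Ch25h and Plin2, all lower over the 4 Cre libraries) and 2 in IRF8KO against 5xFAD (main 4). With all 33 libraries in one model they were 2 in 5xFAD/IRF8KO against IRF8KO and 0 in Batf3KO, and with the size factors of the DESeq2 type 1 in the former. The sex score gave 0 in IRF8KO at 3 months (main 4), 3 in IRF8KO at 9 months (main 5), 2 in IRF8KO against 5xFAD and 0 in the interaction. At 3 months neither Xist nor Y-linked shares overlapped between WT and IRF8KO, so there the score can hardly be told from genotype. Library totals without TMM factors changed none of the 11 counts by over 1.5 times.

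Leaving out each library in turn gave 1 to 2 members in 5xFAD against WT, 3 to 4 in IRF8KO at 3 months, 3 to 5 at 9 months, 5 to 6 in 5xFAD/IRF8KO against 5xFAD, 0 to 2 against IRF8KO, 1 to 2 in the interaction, 2 to 5 in IRF8KO against 5xFAD, 0 to 4 in Batf3KO, 0 to 5 in the conditional experiment, 3 to 5 in the conditional minus germline effect and 3 to 5 between ages. Over all genes the calls moved more: 290 in 5xFAD against WT became 2 with the sex score and 806 in the model of 33 libraries, and 970 in IRF8KO at 3 months became 43 and 3300 in the same settings. The replicate block was entered although pairing by number was not established. It gave 1 member in Batf3KO (main 2) and 105 genes in place of 290 in 5xFAD against WT. Genes called were 216 in place of 503 in Batf3KO and 293 in place of 1223 in the conditional minus germline effect. They were 9 in place of 64 in the interaction and 0 in place of 24 in 5xFAD/IRF8KO against IRF8KO. Under the block the call of Soat1 in IRF8KO at 9 months was lost (0.78, adjusted p = 0.0629). So was that of Soat1 between ages (-1.41, adjusted p = 0.061), and that of Plin2 in IRF8KO against 5xFAD (0.88, adjusted p = 0.0618). Causes of these changes were not tested. Depth limits Nr1h3 and Apoc1, which held 2 pooled counts each in WT at 9 months.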
